A study of Vitis vinifera with 12 samples.

Results

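Fruit peel was compared with young leaf in grape (Vitis vinifera), in 1 peel and leaf pair from each of 3 cultivars. A gene was a peel gene where peel exceeded leaf at least 4-fold in all 3 pairs, on the scale of log2(normalized RPKM + 1), with a level of 10 or more in peel, and a leaf gene where the same held for leaf. RPKM is the read number of a gene scaled to transcript length and to the reads of the whole column. Of 23588 genes found once in both tissue tables, 360 were peel genes and 584 were leaf genes, 944 together. Bangalore blue, Red globe and Dilkhush peel made up 3 groups and their young leaves the other 3, with 2 libraries behind each group and 12 samples in all. The labels give no treatment for any group and no age of vines, leaves or fruit. The series describes the cultivars as differing in anthocyanin, the red to blue pigment of grape skin.

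The peel of a ripening grape is a sink tissue. It imports sugar, softens, accumulates defence proteins such as chitinases and thaumatin-like proteins, and in coloured cultivars makes anthocyanins. MADS-box transcription factors, known for setting the identity of floral organs, remain active in the fruit that forms from the ovary. A young leaf in contrast builds its photosynthetic apparatus and its cell walls, and many young grape leaves also make tannins (proanthocyanidins) and flavonols.

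The files hold 1 RPKM column for each cultivar and tissue, so no value has a replicate error and sequencing depth is unknown. The authors normalized each tissue's table on its own. The tissues were therefore not tested against each other, no p-value is given, and the counts describe these 6 columns. All levels below are RPKM after the 6 columns were brought to a shared distribution by quantile normalization, unless called deposited, and all differences are peel minus leaf on the log2(normalized RPKM + 1) scale, which understates the change of low genes. Deposited medians over the joined genes were 2.67 to 3.07 RPKM in peel and 6.02 to 6.22 in leaf, and 16.3% to 19.1% of genes were listed at 0 in peel against 9.78% to 11.8% in leaf. Red globe leaf stood apart from the other leaf columns. At the 4-fold limit it differed from Bangalore blue leaf in 614 genes (2.6%) and from Dilkhush leaf in 587 (2.49%), whereas those 2 differed from each other in 419 (1.78%). In bulk tissue, fewer cells of a type and less RNA per cell cannot be told apart.

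The tissue difference was larger than any difference between cultivars within a tissue. In the Bangalore blue pair 2040 genes were at least 4-fold apart (8.65% of genes tested), in the Red globe pair 2282 (9.67%) and in the Dilkhush pair 1989 (8.43%). Peel columns differed from each other in 397 genes between Bangalore blue and Red globe (1.68%), 454 between Bangalore blue and Dilkhush (1.92%) and 430 between Red globe and Dilkhush (1.82%). The median size of the tissue difference over the 12090 genes that reached 10 in at least 1 column was 0.77 for the Bangalore blue pair, 0.85 for Red globe and 0.80 for Dilkhush. Between cultivars of the same tissue it ran from 0.29 to 0.49.

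Genes higher in peel numbered 832 for Bangalore blue (3.53%), 1019 for Red globe (4.32%) and 931 for Dilkhush (3.95%). The 360 peel genes common to all pairs (1.53% of genes tested) were 43.3%, 35.3% and 38.7% of these. Genes higher in leaf numbered 1208 for Bangalore blue (5.12%), 1263 for Red globe (5.35%) and 1058 for Dilkhush (4.49%). The 584 leaf genes (2.48%) were 48.3%, 46.2% and 55.2% of them. On the deposited RPKM, with no further scaling, the split of 360 against 584 became 253 against 817. Of the 360 peel genes only 251 kept the call there, while 581 of the 584 leaf genes did, with many further leaf-high genes added. With columns scaled to equal totals, 263 of the 360 peel genes kept it. Without the Red globe pair the remaining pairs shared 491 peel-high and 785 leaf-high genes.

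**Figure D1:**
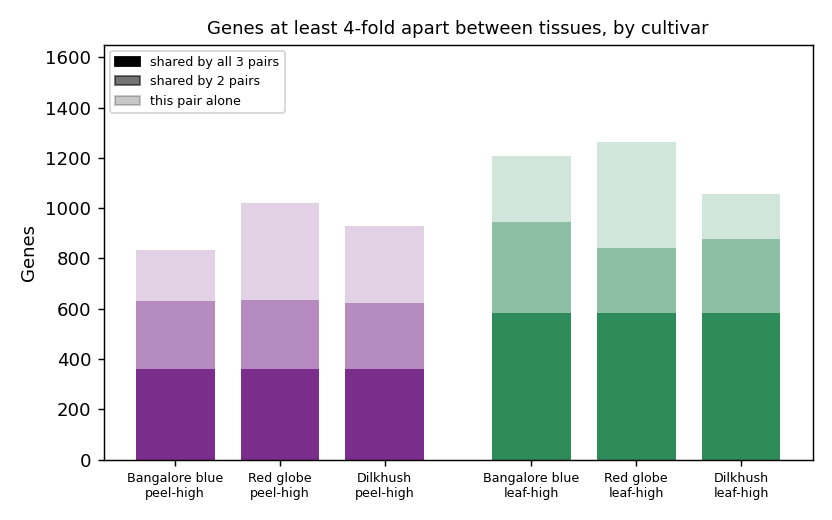
The bars count genes at least 4-fold apart between tissues with 10 or more in the higher tissue, for each cultivar and direction, split by whether all 3 pairs, 2 pairs or that pair alone shared them. The darkest blocks are the 360 peel genes and the 584 leaf genes, and the palest block is tallest for leaf-high genes of Red globe alone (423).

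The size of the difference was large for many members. The smallest of a gene's 3 differences had a median of 2.81 over peel genes and 3.25 over leaf genes, which the 4-fold limit of 2 itself keeps high. It reached 4, which is 16-fold, in 76 peel genes and 155 leaf genes. Near the limit, 135 peel genes and 119 leaf genes had a smallest difference under 2.5. Among named genes the nearest inside were HT6 (2.13) and CIPK20 (2.21) for peel and TIP4 (2.30) and MYB4B (2.31) for leaf. The nearest outside were CYP716A15 (1.79) and GRIP58 (1.65) for peel and PSBP2 (1.91) and CHLH (1.89) for leaf, each given as the size of the smallest difference. Of the 584 leaf genes, 173 were under 1 in every peel column, and of the 360 peel genes, 47 were under 1 in every leaf column. The share of all genes tested that were this low was not counted.

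**Figure D2:**
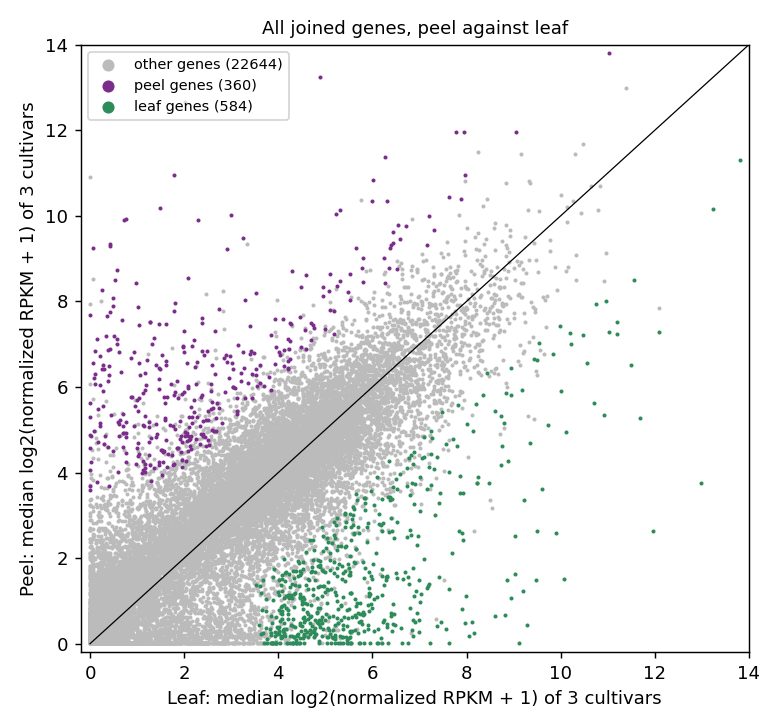
Each point is a gene, with its median level over the 3 cultivars in leaf across and in peel upward, both as log2(normalized RPKM + 1), and the line marks equal levels. The 360 peel genes lie above the line and the 584 leaf genes below it, and many leaf genes lie along the floor of the peel axis.

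Some peel genes were among the most abundant transcripts of peel. They made up 39, 38 and 34 of the 100 highest rows of Bangalore blue, Red globe and Dilkhush peel, and 21.8%, 18.8% and 19.3% of the summed deposited RPKM. Peel genes were 1.53% of all genes tested, but the rule itself asks for 10 or more in every peel column. In the leaf columns the same genes held 1.26% to 1.34%, a gap that the rule itself favours. Leaf genes, 2.48% of genes tested and chosen in the same way, held 17.8%, 13.9% and 19.7% of the summed RPKM of Bangalore blue, Red globe and Dilkhush leaf. They held 1.29% to 1.96% of that of peel. Both the share and the number among the 100 highest rows (37, 27 and 37) were lowest in Red globe leaf. These are not shares of reads, because RPKM divides by length, and they were computed without transfer RNA rows and repeated names.

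Most members carry no gene name. Of the 295 joined genes with a symbol or synonym, 23 were peel genes (7.8%) and 10 were leaf genes (3.39%). Among the unnamed, LOC100245385 was at 953, 930.1 and 1155 in Bangalore blue, Red globe and Dilkhush peel, and between 0.37 and 1.11 in the leaves. LOC100262881 was at 748, 563 and 625 in peel and between 0.044 and 0.51 in leaf. On the leaf side LOC100265728 was at 450, 664 and 420.3 in leaf and at most 0.87 in each peel column, listed at 0 in that of Bangalore blue. LOC104880474 was listed at 0 in all 3 peel columns, with leaf levels of 775 (Bangalore blue), 215 (Red globe) and 550 (Dilkhush). The files and the reference table give these numbers no description.

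Genes on the ripening list, which holds GRIP and alcohol dehydrogenase rows, were mostly higher in peel. Of 10 measured rows on the ripening list, 5 were peel genes, none was a leaf gene, and 9 had a median difference above 0. The list median was 2.62, beside 0.03 over all 12090 measured genes, of which 2.98% were peel genes and 4.83% leaf genes. GRIP22, of a family named for induction in ripening grape berries, had peel levels of 6424 (Bangalore blue), 2142 (Red globe) and 8099 (Dilkhush). In the leaves it was at 3.03, 3.68 and 2.17, far below every peel column. Its median difference of 10.64 was the highest of all measured genes.

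GRIP28 was at 2669, 3980.1 and 4374 in peel against 246, 397 and 223 in leaf, in the order Bangalore blue, Red globe, Dilkhush. GRIP31 was at 619, 1691 and 1290 in peel against 48.1, 73.2 and 62.3 in leaf. GRIP32 had the widest spread of the peel genes of this family, at 160, 478 and 60.5 in peel against 32.6, 22.8 and 7.39 in leaf. Leaf levels of GRIP28 and GRIP31 were highest in Red globe. GRIP21 met the rule in Red globe and Dilkhush but had a difference of 0.34 in Bangalore blue, and GRIP58 had differences of 1.65, 1.67 and 1.73, alike in every cultivar but under 4-fold. GRIP55 met the rule in no pair, at 52.7, 38.8 and 35.7 in peel against 75.8, 22.1 and 25.5 in leaf, so it was higher in leaf in Bangalore blue.

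The alcohol dehydrogenases of the same list did not move together. ADH7 was among the most abundant peel transcripts, at 3980.1, 3288 and 6424 in Bangalore blue, Red globe and Dilkhush peel, against 88.7, 283 and 220 in leaf (median difference 4.86). ADH3 met the rule in Dilkhush alone, at 176 against 14.3. ADH1 was higher in leaf, at 81.8, 74.2 and 75.6 against 12.1, 46.5 and 24.1 in peel, and met the leaf rule in Bangalore blue alone. The dehydrogenases interconvert aldehydes and alcohols, and related copies may share reads.

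The measured MADS-box genes were mostly higher in peel. The MADS and meristem list matched 14 rows, of which only 6 were measured. Of these 6, 4 were peel genes and 1 was a leaf gene, with a list median of 3.50. Rows too low in every column to count as measured, among them AP1, AP3, MADS3, MADS5 and MADS9, do not enter that median. All 4 peel genes reached the measured level in peel columns alone. The filter thus favoured rows high in 1 tissue, and the list as a whole was not tested. MADS4, of the SEPALLATA type that acts in floral complexes, was at 443, 308 and 297 in peel and between 0.11 and 0.41 in leaf. MADS1, of the AGAMOUS lineage of carpel genes, was at 188, 191 and 178 in peel, with the smallest spread between cultivars of any named peel gene. Its leaf levels were between 0.42 and 1.07.

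AG, of the same lineage, was at 63.4, 79.4 and 89.8 in peel against 8.20, 8.90 and 3.51 in leaf (median difference 3.02). MADS2, a further SEPALLATA-type gene, was at 12.6, 34.0 and 15.6 in peel and was listed at 0 in Bangalore blue and Red globe leaf, with a deposited RPKM of 0.088 in Dilkhush leaf. TM6, a B-class relative of the petal gene AP3 that was not on the list, was at 84.4, 146 and 246 in peel and between 0.36 and 0.66 in leaf. TM6 was lowest in Bangalore blue peel and highest in Dilkhush peel.

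Other floral organ genes did not accompany them. AP3 and MADS9, the petal and stamen genes of the B class, were under 0.47 in every peel column. AP1, which marks young flowers and sepals, was listed at 0 in all 3 peel columns and reached 4.76 in Red globe leaf. MADS5, of the lineage tied to ovule and seed identity, was at 7.55 in Red globe peel and at 0.30 and 0.16 in Bangalore blue and Dilkhush peel, and was listed at 0 in all leaves. No row was found by symbol for the seed storage and oleosin markers. The part of seed or other fruit tissue in these values was not tested.

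MADS8, of the SOC1 type known as a floral integrator, was the reverse of the others. It was at 233, 164 and 140.1 in Bangalore blue, Red globe and Dilkhush leaf and between 0.26 and 0.35 in peel, a median difference of -6.94. It was the list's lowest member, and its leaf levels lay within a range of 0.73 on the log2 scale.

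Of 14 measured PR and defence genes 3 were peel genes and none was a leaf gene, with a median difference of 1.48 and 9 medians above 0. The list median was 0.30 without the Red globe pair and 0.90 on deposited RPKM. CHI4D, a class IV chitinase, was at 9635, 14267 and 4694 in Bangalore blue, Red globe and Dilkhush peel and at 164, 28.7 and 20.5 in leaf. TL1, a thaumatin-like protein, was at 3288, 428 and 953 in peel and between 3.54 and 4.28 in leaf. Its peel levels were far apart and its leaf levels close together. PR10.5, of a family of small intracellular defence proteins, was at 29.9, 28.5 and 21.5 in peel and was listed at 0 in Bangalore blue and Dilkhush leaf.

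The remaining 11 measured defence genes were in neither class, and some depended on the cultivar or went the other way. CHI4C was higher in peel in every pair, by 1.20, 0.60 and 2.24 in Bangalore blue, Red globe and Dilkhush. It met the rule in Dilkhush alone. CHIT3, a chitinase, met the leaf rule in Bangalore blue and Dilkhush, at 13.9 and 23.0 in leaf against 1.34 and 1.38 in peel. A row named chit1a was at 154 in Bangalore blue leaf against 14.9 in peel and met the rule in no other pair. PGIP1, which encodes a protein that inhibits fungal polygalacturonases and was not on the list, was a peel gene at 115, 67.8 and 164 against 0.27 to 0.51 in leaf. PR10 and chitinase rows are families of close copies among which the counting may have split reads.

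Sugar transporters split by member. Of 10 measured sugar genes 2 were peel genes, none was a leaf gene, and the list median was 0.27. It ran from 0.01 on deposited RPKM to 0.75 without the Bangalore blue pair. HT2, a hexose transporter, was at 133, 65.8 and 105 in peel against 4.70, 6.90 and 6.82 in leaf (median difference 3.76). HT6, a hexose transporter of the vacuolar membrane type, was at 148, 164 and 326 in peel against 30.6, 36.7 and 31.0 in leaf, and did not meet the rule on the deposited RPKM. SWEET15, a sugar exporter outside the list, had a far wider gap than either, at 188, 337 and 235 in peel and 0.30, 1.20 and 0.39 in leaf. Its differences of 7.18, 7.26 and 7.40 were nearly equal in the 3 cultivars.

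Further named peel genes had roles in signalling and metabolism. ADF, an actin-depolymerizing factor, was at 610.0, 610.0 and 510.3 in peel against 54.8, 36.7 and 49.3 in leaf. HPLA, a hydroperoxide lyase that makes short leaf and fruit aldehydes from fatty acids, was at 721, 396 and 279 against 42.2, 55.9 and 45.1. METK4, which makes the methyl donor S-adenosylmethionine, was at 1155, 2073 and 1995 against 195, 249 and 293. All 3 were above 30 in every leaf column.

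Peel genes that encode further regulators were mybA, MYB24 and CIPK20. The row of the anthocyanin activators mybA was at 105, 39.9 and 23.9 in Bangalore blue, Red globe and Dilkhush peel. Its leaf values were 0 as listed for Bangalore blue, 0.89 for Red globe and 0.36 for Dilkhush. MYB24, another R2R3-MYB factor, was at 10.6, 19.2 and 11.1 in peel and listed at 0 in all 3 leaf columns. Its deposited peel values of 8.40 and 9.37 RPKM in Bangalore blue and Dilkhush were under 10, so it met the rule through the normalization. CIPK20, a kinase that binds calcium sensors, was at 17.0, 16.8 and 27.3 in peel against 1.67, 2.86 and 1.78 in leaf, and did not meet the rule with any other scaling tried.

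**Figure D3:**
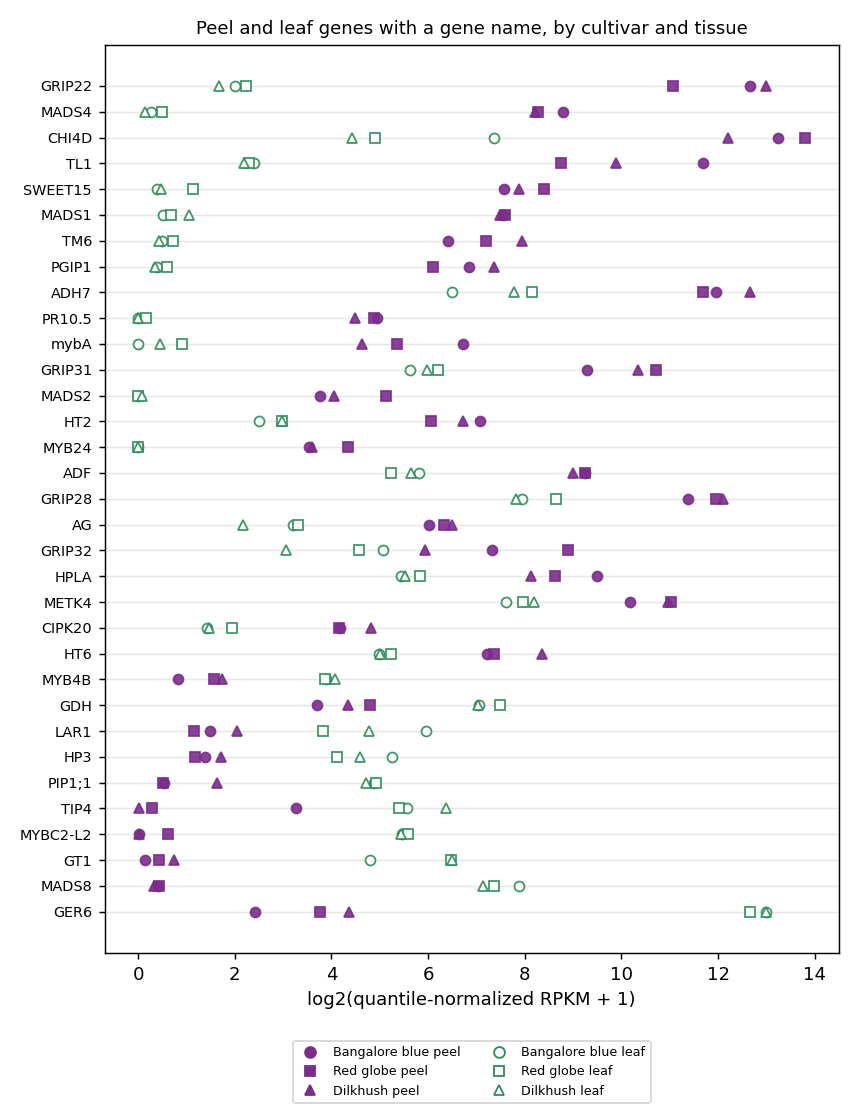
The plot gives the level of each of the 33 named peel and leaf genes as log2(normalized RPKM + 1), with filled purple marks for peel, open green marks for leaf, and a mark shape for each cultivar, ordered by the median difference. The rule chose these genes on the plotted values, and the spread within a tissue is narrow for MADS1 and MYBC2-L2 and wide for GRIP32 and TL1.

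Of the named leaf genes, GER6 had the largest median difference. GER6, a germin-like protein of the cell wall, had leaf levels of 8099 (Bangalore blue), 6424 (Red globe) and 8099 (Dilkhush), and was at 4.36, 12.6 and 19.5 in peel (median difference -8.89). Levels repeat between columns because normalization gives equal ranks equal values. Its deposited leaf values were 5663, 3220 and 7890 RPKM. It was among the most abundant of all leaf transcripts. Its relative GER7 was higher in peel, at 31.7, 13.6 and 0.68 in peel against at most 0.77 in every leaf column, which met the rule in Bangalore blue and Red globe.

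Repressors of the flavonoid pathway divided between the tissues. Of 4 measured MYB repressors 2 were leaf genes and none was a peel gene, with a list median of -0.86, which ran from -1.29 with columns scaled to equal totals to -0.57 without the Bangalore blue pair. MYBC2-L2 was at 42.8, 47.0 and 42.1 in leaf and listed at 0 in Bangalore blue and Dilkhush peel, with 0.53 in Red globe peel. MYB4B was at 13.8, 13.7 and 15.9 in leaf against 0.76, 1.96 and 2.34 in peel. These were the 2 named leaf genes with the narrowest spread between leaf columns. MYB4A was higher in peel, at 144, 103 and 73.6 against 34.8, 29.9 and 25.8 in leaf, and reached 4-fold in Bangalore blue alone. MYBC2-L1 was at 95.3, 28.5 and 22.9 in peel and 61.4, 6.86 and 16.3 in leaf.

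Proanthocyanidin genes were higher in leaf throughout. All 3 measured rows had a negative median, the list median was -2.34, and LAR1 was a leaf gene. LAR1, a leucoanthocyanidin reductase that makes the catechin units of tannins, was at 61.0, 13.2 and 26.5 in Bangalore blue, Red globe and Dilkhush leaf against 1.81, 1.22 and 3.14 in peel. LAR2 was at 75.6, 59.9 and 133 in leaf and 5.95, 16.7 and 60.04 in peel, and met the rule in Bangalore blue alone. MYBPA1, an activator of tannin synthesis, was at 59.9, 55.1 and 68.3 in leaf and 8.44, 15.8 and 12.7 in peel, and missed 4-fold in Red globe.

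Aquaporins, the water channels of the plasma membrane (PIP) and vacuole (TIP), were divided as well. Of 12 measured rows 2 were leaf genes and none was a peel gene, with a list median of -0.38. It turned to 0.09 when columns were scaled to equal medians and to 0.26 without the Red globe pair, and was -0.80 without Dilkhush. PIP1;1 was at 28.3, 29.5 and 25.2 in leaf against 0.46, 0.42 and 2.11 in peel. TIP4 was at 46.1, 41.3 and 81.6 in leaf, 8.57 in Bangalore blue peel, 0.23 in Red globe peel and listed at 0 in Dilkhush peel. TIP1;1 met the leaf rule in Bangalore blue and Red globe, at 127 and 107 in leaf against 12.2 and 8.16 in peel. The most abundant member, PIP1;3, was at 1175, 592 and 1934 in peel and 1114, 336 and 1114 in leaf, with overlapping levels.

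Other named leaf genes included enzymes and a signalling protein. GDH, a glutamate dehydrogenase row, was at 132, 178 and 130 in leaf against 11.9, 26.7 and 19.2 in peel. Another row, which shares the name GDH with a LOC number, met the rule in no pair. That row was at 10.3, 8.12 and 8.12 in leaf and 11.2, 9.38 and 10.5 in peel. GDHB, a further subunit of this enzyme, met the rule in Bangalore blue and Red globe and was at 61.2 in leaf against 28.9 in peel of Dilkhush. HP3, a phosphotransfer protein of the cytokinin relay, was at 37.3, 16.4 and 23.1 in leaf against 1.59, 1.26 and 2.30 in peel. The row with the synonym GT1 was at 26.7, 87.8 and 89.7 in leaf and at most 0.66 in peel.

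The leaf label was checked against photosynthesis genes, which were higher in leaf in most pairs. All 5 measured rows had a negative median, the list median was -2.14, and none was a leaf gene, since none reached 4-fold in every pair. CHLH, a subunit of the chlorophyll enzyme magnesium chelatase, was at 630.3 in Bangalore blue leaf and 644 in Dilkhush leaf but at 127 in Red globe leaf, against 39.3, 47.4 and 33.4 in the matching peels. PSBP1, of photosystem II, was at 2142 and 1934 in Bangalore blue and Dilkhush leaf and 478 in Red globe leaf, against 356, 419 and 278 in peel. NDHM, of the chloroplast NDH complex, was at 55.2, 30.2 and 11.8 in leaf against 4.61, 6.09 and 4.35 in peel in the same order. PSBP2 was close to the limit in all pairs (-1.99, -1.91 and -2.01 in Bangalore blue, Red globe and Dilkhush).

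THI1-2, a thiazole synthase of vitamin B1 synthesis placed on the same list, did not follow the others. It was at 43.6 in Bangalore blue leaf against 484 in peel, and at 806 in Red globe leaf against 250 in peel. Red globe leaf was thus lowest in CHLH, PSBP1, PSBP2 and NDHM and highest in THI1-2. Over all genes, 201 were leaf-high in both other pairs and not in Red globe, compared with 94 missing in Bangalore blue alone and 162 in Dilkhush alone. Of 17 named genes that were leaf-high in exactly 2 pairs, 9 missed Red globe, 6 missed Dilkhush and 2 missed Bangalore blue. The 9 included CHLH, PSBP1, NDHM, the carotenoid enzyme ZEP, the tannin activator MYBPA1 and the bHLH factor MYCA1.

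**Figure D4:**
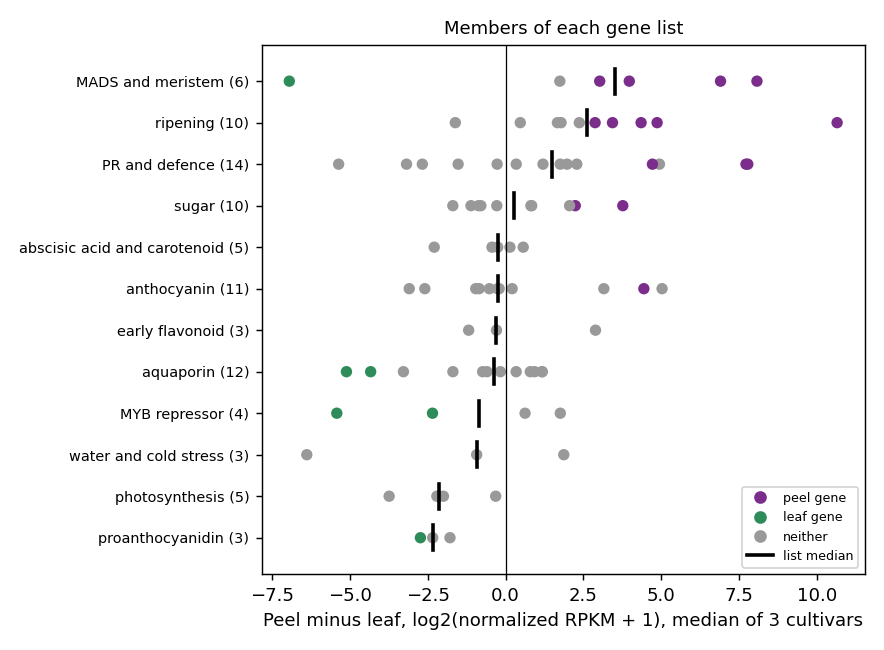
Each point is a measured member of a gene list, placed at its median peel minus leaf difference over the 3 cultivars on the log2(normalized RPKM + 1) scale, and the black bar is the list median, with the number of measured members in brackets. The medians of the MADS and ripening lists lie farthest right, although MADS8 and ADH1 lie left of 0, and all photosynthesis and proanthocyanidin members lie left of 0.

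Anthocyanin genes as a list showed no common tissue difference. Of 11 measured rows 1 was a peel gene, the mybA row, none was a leaf gene, and the list median was -0.26 with 4 medians above 0 and 7 below. It was -0.97 without the Bangalore blue pair, -0.71 without Red globe and 0.25 without Dilkhush, and -0.54 on deposited RPKM. UFGT, the glucosyltransferase of anthocyanins, was at 303 and 349 in Bangalore blue and Red globe peel against 2.15 and 9.77 in leaf, while Dilkhush had 3.33 in peel and 6.12 in leaf. GST4, which carries anthocyanins to the vacuole, was at 2073 against 1.80 in Bangalore blue and 1312 against 146 in Red globe, but lower in peel in Dilkhush, at 11.6 against 52.9. The mybA row thus met the rule in Dilkhush and these 2 genes did not.

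Earlier steps of the pathway were abundant in both tissues of Bangalore blue and Red globe. LDOX, the anthocyanidin-forming dioxygenase, was at 1660.0, 583 and 159 in Bangalore blue, Red globe and Dilkhush peel and at 989, 696 and 869 in leaf. DFR, the reductase before it, was at 378, 284 and 101 in peel and 326, 213 and 314 in leaf. F3H, which hydroxylates flavanones, was higher in leaf in every pair, at 644, 294 and 641 against 283, 131 and 9.26, and met the rule in Dilkhush alone. CHS3, a chalcone synthase, met the peel rule in Bangalore blue and Red globe, at 1834 and 500 against 175 and 66.7, and was at 48.9 in peel and 139 in leaf of Dilkhush. The early flavonoid list of 3 measured rows had a median of -0.29, or -0.69 without the Bangalore blue pair, -0.67 without Red globe and -0.61 on deposited RPKM.

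Outside the 944 members, 2529 genes (10.7%) met the rule in 1 or 2 pairs in 1 direction, and 44 genes (0.187%) were peel-high in 1 cultivar and leaf-high in another. Of these 44, 25 were peel-high in Dilkhush and 21 leaf-high in Bangalore blue. The count was 9 without the Dilkhush pair, 18 without the Red globe pair and 27 without the Bangalore blue pair. Named among them were GST4, the hexose transporter HT5, the dehydrin DHN1, which is known from drought and cold responses, and MLO11, whose family includes powdery mildew susceptibility factors.

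HT5 was at 31.2 in peel against 6.05 in leaf of Red globe, and at 1.88 against 51.1 in Dilkhush. In Bangalore blue it was at 6.05 against 21.8. DHN1 was at 5.26 in peel and 70.6 in leaf of Bangalore blue, at 5.90 and 0.89 in Red globe, then 12.8 and 0.30 for Dilkhush, so its reversal lay in the leaf. MLO11 was at 14.0 in peel and 0.91 in leaf of Red globe against 1.54 and 11.4 in Dilkhush, with 1.64 and 2.18 in Bangalore blue.

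Several stress and defence genes met the rule in Bangalore blue and Red globe and not in Dilkhush. RD22-C, of a dehydration-responsive family, was at 181 and 270.02 in Bangalore blue and Red globe leaf against 1.19 and 1.82 in peel, while Dilkhush had 88.2 in leaf and 220.1 in peel. The PR-1 row, a marker of salicylic acid responses, was at 370.1 and 291 in these leaves against 8.06 and 1.33 in peel, and at 1312 against 589 in Dilkhush. For both, the Dilkhush peel was the column that stood apart.

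PR10.3 went the other way, at 260.2 and 484 in Bangalore blue and Red globe peel against 6.55 and 14.8 in leaf, with 41.9 and 65.4 in Dilkhush. PR10.2 was at 2771, 4374 and 1100.5 in Bangalore blue, Red globe and Dilkhush peel and 567, 78.3 and 989 in leaf. F3'5'H, the hydroxylase of the delphinidin branch, was leaf-high in Red globe and Dilkhush, at 10.6 and 27.5 against 0.37 and 0.097 in peel, and at 39.5 in peel and 25.8 in leaf of Bangalore blue. A second row of this name, LOC100232896, was listed at 0 in every peel column. It was at 0.77, 2.43 and 7.71 in Bangalore blue, Red globe and Dilkhush leaf. With 1 column for each cultivar and tissue, none of these differences between cultivars was tested.

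**Figure D5:**
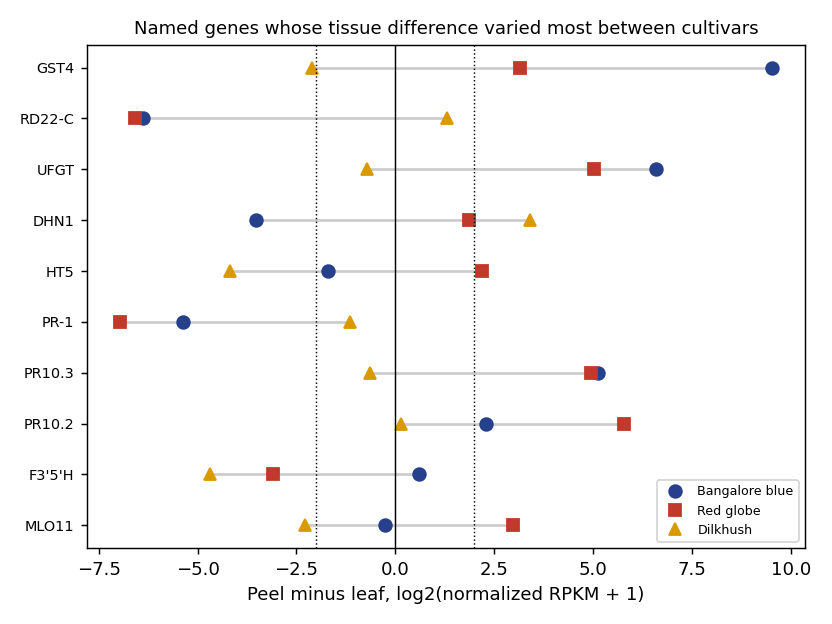
The plot gives the peel minus leaf difference in each cultivar, on the log2(normalized RPKM + 1) scale, for the 10 named genes whose difference varied most among those meeting the rule in 2 pairs or in opposite directions, with dotted lines at the 4-fold limit. Dilkhush lies apart from both other cultivars for RD22-C, UFGT, PR-1 and PR10.3, and GST4 spans 11.63 units with Red globe between the others.

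Of the lists not yet described, abscisic acid and carotenoid genes had 5 measured rows with a median of -0.25, or 0.30 without the Bangalore blue pair, -0.46 without Red globe and -0.76 on deposited RPKM, and no member in either class. NCED1, a dioxygenase that makes the abscisic acid precursor, was at 63.8 in leaf against 3.89 in peel of Bangalore blue and at 0.95 against 7.73 in Dilkhush. Water and cold stress genes had 3 rows and no member. Their median was -0.93, or 0.23 without the Bangalore blue pair, -0.05 without Red globe, -1.43 without Dilkhush and -1.57 on deposited RPKM. Lists with fewer than 3 measured rows held no member. CYP716A15, a triterpene oxidase, was at 50.04, 116 and 212 in peel against 2.52, 5.28 and 60.7 in leaf. The stilbene synthase row VINST1 was at 15.2 in peel against 0.23 in leaf of Red globe. The pectate lyase PL1, which loosens cell walls, had peel levels of 453, 293 and 737 against 64.8, 94.04 and 98.7. On the leaf side 4CL, of the phenylpropanoid entry, was at 110, 66.9 and 120.3 in leaf against 26.1, 23.4 and 9.04 in peel. The lignin gene CCOAMT was at 57.0, 60.9 and 61.02 against 14.8, 20.2 and 14.7. FLS1, the flavonol synthase, differed by cultivar. It was at 233 in leaf against 24.8 in peel of Red globe and met the leaf rule there alone. In Bangalore blue it was at 104 in leaf against 82.2 in peel, and in Dilkhush at 24.2 against 40.3. The heat shock gene HSP101 had a median of 0.29.

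Peel genes had wider ranges between cultivars than peel-expressed genes as a whole. Their range over the 3 peel columns had a median of 0.97 and reached 2, which is 4-fold, in 56 of 360 genes (15.6%). Over all 7712 genes at 10 or more in every peel column, members included, the median range was 0.49 and 2.53% reached 2. For leaf genes over the leaf columns the median range was 0.74 and 34 genes (5.82%) reached 2, beside 0.56 and 2.61% over 7424 genes. The rule chose the members on these same columns, and the larger sets were not matched for tissue difference. What the wider ranges reflect was not tested. Among named peel genes the range was widest in GRIP32 (2.96), TL1 (2.94) and mybA (2.08) and narrowest in MADS1 (0.10) and ADF (0.26). Dilkhush had the fewest peel genes at their highest level (89), beside 125 for Red globe and 146 for Bangalore blue. The order was reversed for leaf genes, with 218 for Dilkhush, 202 for Red globe and 164 for Bangalore blue. No such count over all expressed genes is given beside these, so a cultivar effect was not tested.

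Members were mostly protein-coding in the reference gene table, 93.3% of peel genes and 97.1% of leaf genes, beside 84.6% of all genes tested. There were 8 long non-coding RNAs among the peel genes (2.22%) and 6 among the leaf genes (1.03%), beside 2.31% of all genes tested. Members had to pass the level floor of the rule, whereas all genes tested include rows at any level. The shares among genes of matching level were not counted, so a link between gene type and tissue difference was not tested. Some members sit side by side in the gene order of the reference assembly. Of 330 peel genes that could be placed, 24 (7.27%) were next to another peel gene among protein-coding genes, and 2.84% of the other placed genes were next to a peel gene. For leaf genes it was 44 of 562 (7.83%) beside 5.07%. CHI4D, TL1 and MADS4 each had 1 unnamed peel gene as a neighbour, and TIP4 had an unnamed leaf gene.

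The longest run was of 6 consecutive peel genes, none of them named in the files. Their peel levels lay between 12.8 and 625, their leaf levels between 0.052 and 8.47, and their median differences between 4.16 and 5.99. No run of leaf genes was longer than 3. Neighbouring genes can be close copies that share reads, so such runs may hold fewer independent values than genes.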

How the data were processed

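Directional mRNA libraries were made from total RNA of young leaves and fruit peels, as the labels' protocols state. The submitters' processing notes list TopHat2 2.1.1 and Cufflinks 2.2.1 without roles. No source used here gives the genome build or says how 2 libraries became 1 column. Per the file headers, the authors deposited RPKM, with 1 column for each cultivar and tissue. Depth is unknown, so no interval is given.

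The tables of 25210 peel rows and 25253 leaf rows were joined on gene name, leaving out repeated names (653 and 931 rows), transfer RNA rows and names in 1 table only (967 and 731), which left 23588. Names that differ between tables or repeat, such as CHS, STS and ADH2 rows, were not compared. The 6 columns were quantile normalized together, tied values sharing the mean of their quantiles. Genes were called at a difference of 2 in log2(value + 1) in all 3 pairs, with 10 or more in the higher tissue of each pair. The files were normalized separately by tissue, so no test was made across them.

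Names came from the files or from the RefSeq table of assembly GCF_030704535.1, which held 21391 of 23796 LOC numbers and gave a name to 52 LOC rows. It has no descriptions. Neighbours were taken from its gene order. There were 21 gene lists matched by symbol, 3 of which (cell cycle and histone, wax and cutin, microRNA precursor) matched no row. A member counted as measured at 10 or more in any column. Named genes were all members with a name, 2 to 4 rows of each list, the 10 named rows that varied most between cultivars, and at most 2 unnamed rows each way, fewer than the 6 first planned because no description exists. The members and lists were chosen with earlier results of these data known. Other named genes, such as GER7, GDHB, ADH3 and MADS5, were chosen after their values were seen. The call step was tried on simulated columns with 16-fold changes, which does not test genes near the limit. Python 3.11.15 and pandas 2.3.3 were used.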

Additional observations from a re-analysis of the deposited data

Results flagged for a closer look

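The tissue difference of 4 named genes was at least 4-fold towards peel in 1 cultivar and at least 4-fold towards leaf in another. The span between the cultivars, on the log2(normalized RPKM + 1) scale, was 11.63 for GST4 (peel-high in Bangalore blue and Red globe, leaf-high in Dilkhush) and 6.93 for DHN1 (leaf-high in Bangalore blue, peel-high in Dilkhush). It was 6.37 for HT5 and 5.25 for MLO11, both peel-high in Red globe and leaf-high in Dilkhush. Each cultivar had 1 value per tissue, so these differences were not tested.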

How the results depend on the processing

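With replicate number as a block, no paired analysis was possible because the columns carry no replicate number. Peel and leaf were compared within each cultivar throughout. A model with cultivar as a block was not run, since the tables were normalized separately. The 360 peel genes and 584 leaf genes became 160 and 349 at an 8-fold limit, and 354 and 579 on rows of 1 name, an alternative added once the data had been seen. Leaving out each cultivar in turn gave 491 to 501 peel genes and 678 to 785 leaf genes. The share of peel genes among members was 38.1%. It was 23.6% on deposited RPKM and 24.6% with equal totals, but 41.1% with equal medians (404 peel and 580 leaf genes). Deposited RPKM and equal totals moved the median difference of all genes from 0.01 to -0.16 and -0.17, and a pseudocount of 0.1 moved it to 0.14. The 44 genes with opposite differences became 78 without a floor, 71 where 2 columns had to reach 5, 8 at 8-fold and 9 to 27 with a cultivar left out. The 2529 genes called in 1 or 2 pairs became 1496 at 8-fold and 1441 to 1875 with a cultivar left out.

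A lower or absent floor, the smaller pseudocount and leaving out a cultivar only relax the rule, so no member could lose its call there. Of the 33 named members, CIPK20, HT6 and MYB24 lost it on deposited RPKM and with equal totals, CIPK20 with equal medians, and 11 at 8-fold.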
